A study of Mus musculus with 12 samples.

Results

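Gene expression around the portal tracts of mouse liver was compared between males and females. The comparison used the 6 arrays titled Portal out of the 12 of the study, which were chosen by title alone: 3 arrays of males and 3 of females. All mice were of the inbred strain C3H/HeNCrlBR, no treatment is recorded for them, and their ages are not given in the sources used here. Tissue was cut out of liver sections by laser from zone 1, the hepatocytes around the portal tract, with 5 slides captured per zone and mouse. The RNA, isolated with a PicoPure kit, went through whole-transcriptome amplification (NuGEN Ovation Pico WTA) and was hybridised with Cy3 label to single-colour Agilent mouse arrays. The other 6 arrays hold zone 3, the hepatocytes around the central veins, of both sexes (3 arrays each), and serve here to estimate the spread and to ask whether a sex difference was the same in both zones. The 12 arrays were taken to come from 6 mice, 3 per sex, with both zones captured per mouse. The labels do not say which captures of the 2 zones came from the same animal. The fit therefore treated the 12 arrays as independent, and p-values measure the spread between these samples.

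The livers of male and female mice differ because the pituitary releases growth hormone in pulses in males and more evenly in females. The pattern is read in the hepatocyte by the growth hormone receptor and the transcription factor STAT5B, and is passed on by repressors such as BCL6, which is male-biased, and CUX2, which is female-biased. The best known target genes encode cytochromes P450, sulfotransferases, steroid-metabolising enzymes and the major urinary proteins. Hepatocytes around the portal tract meet blood rich in oxygen, nutrients and hormones, and hold a set of enzymes that differs from that around the central vein.

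Values are log2 signal relative to each array's 75th percentile, so that a level of 0 is the brightness of the 75th percentile probe. A difference is always male minus female on this scale, with its standard error from limma and 3 arrays per sex, and called genes are those whose adjusted p (Benjamini-Hochberg, all tested genes) was under 0.05. The 75th percentile lay at 217 to 262 intensity units on the male arrays and at 284 to 314 on the female arrays. Of the probes, 68.9 to 73.9% were well above background on an array. Arrays of the same sex correlated at 0.967 to 0.980 across genes and arrays of different sex at 0.956 to 0.968, where genes are not independent replicates. The labelled sex was checked on genes outside the comparison. Xist, the RNA of the inactive X chromosome, read 5.25, 5.08 and 4.89 in females and -3.55, -3.87 and -4.28 in males, and the Y-linked Ddx3y was at least 45.9-fold higher in males. Arrays with the same scan date in the file headers were taken to share an array slide, since the labels name no slide. By this reading, male replicate 1 lay on 1 slide, male replicates 2 and 3 on another and the 3 female arrays on the third. Slide and sex therefore cannot be told apart within the zone 1 arrays, and in bulk tissue fewer cells of a type and less RNA per cell cannot be told apart either.

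Few genes differed between the sexes around the portal tracts, but the differences ranged widely, with the plasma glycoprotein A1bg and the P450 Cyp2b9 towards the female end and the steroid reductase Hsd3b5 at the male end. Of 15368 autosomal genes tested, 113 were called (0.735%). They comprised 56 genes higher in males (0.364%) and 57 higher in females (0.371%), and 110 of the 113 differed by more than 2-fold. The male and female arrays did not overlap for any of the 113 genes, against 3749 such genes (24.4%) among all tested, 1450 (9.44%) higher in males and 2299 (15%) higher in females. The median difference over all autosomal genes was -0.07. At an unadjusted p under 0.05, 2216 genes passed. The female-biased side held the larger differences, with a median size of 2.02 against 1.57 on the male side. Of the 57 genes higher in females, 43 were measured on all 6 arrays, 6 on 1 or 2 of the male arrays and 8 on none of the male arrays. For the 56 genes higher in males these numbers were 47, 4 and 5.

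The count of called genes depended on single arrays and on the slide. It was 59, 75 and 62 without male replicates 1, 2 and 3, and 95, 66 and 71 without female replicates 1, 2 and 3. With slide as a fixed block, estimated through the zone 3 arrays that share slides, 13 genes were called, 11 of them among the 113, and all 113 kept their direction, 97 of them at more than 2-fold. The median standard error of the 113 was 0.50 in that fit and 0.27 without the block. The 11 genes included Cyp2b9, Cyp2b13, Cyp2a5, Sult2a2, Cyp2c39, Slc22a26 and Dhx36 on the female side and Cyp4a12a, Cyp7b1 and Gstp1 on the male side. The split between the sexes also moved with the scaling. It was 24 higher in males and 108 higher in females with no scaling, 79 and 51 with arrays centred on the median, and 14 and 26 with another background correction (normexp). The median difference of all genes was -0.41, 0.05 and 0.11 in these 3 settings.

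**Figure D1:**
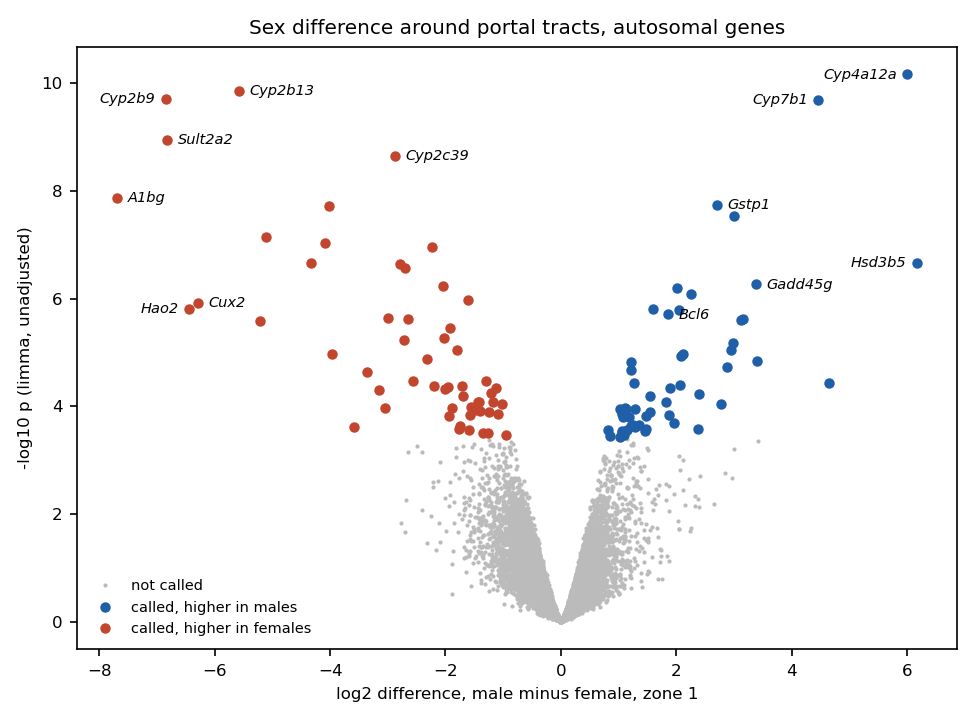
Difference between the sexes around the portal tracts for the autosomal genes tested (1 point per gene, without 1 gene that is not reported here), as log2 male minus female on the horizontal axis against the -log10 of limma's unadjusted p on the vertical axis. Among the points, genes called higher in females (red) reach -7.69 for A1bg, and those called higher in males (blue) reach 6.18 for Hsd3b5; grey points were not called.

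Regulators of the growth hormone response were called in both directions. Cux2, the homeobox repressor of female liver, read -0.69, -0.61 and -0.02 on the female arrays and -6.52, -7.00 and -6.65 on the male arrays (probe at chr5:121094700-121094759, build mm7). It was not well above background on any male array, so the difference of -6.28 ± 0.69 (adjusted p = 0.000623) stands for at least 17.4-fold higher signal in females. A second Cux2 probe differed by -3.89. Bcl6, the repressor of male liver, read 3.35, 3.41 and 3.18 in males and 1.11, 1.64 and 1.62 in females (chr16:23623679-23623738). All male arrays lay above all female arrays, by 1.86 ± 0.21 or 3.63-fold (adjusted p = 0.000901).

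Prlr, the prolactin receptor, read 3.90, 4.16 and 3.99 in females against 2.56, 2.19 and 2.46 in males and differed by -1.61 ± 0.17 (3.06-fold, adjusted p = 0.000566). Its lowest female array was above its highest male array, and all 3 of its probes were higher in females, by 1.61 to 2.37. Trim24, a cofactor of nuclear receptors, was 2.53-fold higher in females (adjusted p = 0.042). Tox, an HMG-box protein, was at least 2.6-fold higher in females and was not well above background on any male array, and its difference turned to 0.43 with normexp. Foxa3, a forkhead factor of hepatocytes, was 2.08-fold higher in males (adjusted p = 0.0419). Trim24 and Foxa3 were not called when any 1 of the 6 arrays was left out. Without male replicate 2 or 3 or female replicate 2 or 3, Tox was not called.

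The growth hormone receptor, Stat5b and some further genes of this response were not called. Ghr, the growth hormone receptor, differed by 0.45 (adjusted p = 0.295), and Stat5b by -0.54 (0.321). Igf1, the circulating growth factor, read 8.23, 8.14 and 8.47 in males and 8.09, 8.25 and 8.26 in females, and the sexes overlapped. Among the feedback inhibitors, Cish differed by 1.03 (adjusted p = 0.301) and Socs2 by -0.63 (0.316). The epidermal growth factor receptor Egfr differed by 0.82 (0.154). In the list of growth hormone signalling and liver transcription factors, 40 of 42 members were tested, 2 were called higher in males and 4 higher in females, and the median was 0.02.

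Promoters of 4 called genes are shown because they hold the letters TTCNNNGAA, the motif to which STAT5 proteins bind, in the 250 bases before the start (RefSeq, GRCm38.p6). Each is given 5′ to 3′ on the gene's strand with the motif in capitals. The first 2 belong to genes called higher in females and the last 2 to genes called higher in males, and the motif's first base lies 109, 84 and 118 bases before the start in the first 3, and 173 and 107 in Keg1. A1bg lies on the minus strand at chr15:60921271-60921520, Sult3a1 on the plus strand at chr10:33857472-33857721, Bcl6 on the minus strand at chr16:23988853-23989102 and Keg1 on the plus strand at chr19:12695540-12695789.
Sult3a1: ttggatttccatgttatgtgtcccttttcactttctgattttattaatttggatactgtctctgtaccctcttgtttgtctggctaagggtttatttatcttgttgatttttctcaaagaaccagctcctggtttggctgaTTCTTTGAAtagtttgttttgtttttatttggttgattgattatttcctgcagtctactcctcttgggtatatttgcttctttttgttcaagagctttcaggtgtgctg
A1bg: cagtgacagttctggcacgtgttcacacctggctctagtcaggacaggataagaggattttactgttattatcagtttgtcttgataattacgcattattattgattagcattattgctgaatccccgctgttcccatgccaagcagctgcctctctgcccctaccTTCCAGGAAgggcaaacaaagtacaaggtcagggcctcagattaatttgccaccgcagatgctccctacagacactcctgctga
Bcl6: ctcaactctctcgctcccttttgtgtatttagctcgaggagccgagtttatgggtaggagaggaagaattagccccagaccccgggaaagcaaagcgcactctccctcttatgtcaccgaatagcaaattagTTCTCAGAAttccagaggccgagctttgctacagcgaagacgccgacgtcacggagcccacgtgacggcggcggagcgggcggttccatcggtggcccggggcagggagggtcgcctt
Keg1: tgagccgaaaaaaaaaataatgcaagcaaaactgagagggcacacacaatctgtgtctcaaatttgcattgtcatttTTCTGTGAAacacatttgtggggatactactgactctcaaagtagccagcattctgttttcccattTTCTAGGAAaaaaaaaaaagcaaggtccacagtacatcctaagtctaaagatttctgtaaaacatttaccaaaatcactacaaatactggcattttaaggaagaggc
The motif, which reads the same on both strands, was found in 7 of 45 promoters (15.6%) of 38 genes called higher in males and in 8 of 57 (14%) of 49 genes called higher in females. Its share was 6.19% among the promoters of all autosomal genes tested and 7.02% among all promoters. The CUX and HNF6 core ATCGAT was in 1 of 45 promoters (2.22%) of genes called higher in males. It was in 1 of 57 (1.75%) of those called higher in females, against 98 of 14626 (0.67%) of those tested. TATAAA was in 15.6% and 15.8%, against 8.47%. These shares are descriptions of the letters in these windows, searched on both strands, with no test.

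P450 enzymes of drug, steroid and fatty acid oxidation held many of the large differences. Close copies of the Cyp2b and Cyp4a families were among them, and the 60-base probes that read them are printed because they show which copies a signal can come from. The sequences are those in the array files, 5′ to 3′, with their mm7 positions.
Cyp2b9: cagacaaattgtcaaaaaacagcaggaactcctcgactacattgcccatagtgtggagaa
Cyp2b13: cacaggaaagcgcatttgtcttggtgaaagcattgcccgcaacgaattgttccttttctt
Cyp4a12a: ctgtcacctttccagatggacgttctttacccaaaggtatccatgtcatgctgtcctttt
The Cyp2b9 probe lies at chr7:23095303-23095362 and lists Cyp2b9 alone. The Cyp2b13 probe spans 6056 bases of the genome at chr7:22986378-22992433 and lists Cyp2b10, Cyp2b13 and Cyp2b9. The Cyp4a12a probe spans 933 bases at chr4:114704243-114705175 and lists Cyp4a12a and Cyp4a12b. Values of these genes are therefore uncertain between close copies, except for Cyp2b9.

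Cyp2b9 read 6.32, 6.67 and 6.71 in females and 0.65, -0.94 and -0.54 in males. The lowest female array lay far above the highest male array, with a difference of -6.85 ± 0.34 (115-fold, adjusted p = 4.17e-07), and its other probe gave -6.86. Cyp2b13 differed by -5.58 ± 0.27 (47.9-fold) and by -5.69 on a probe that lists Cyp2b13 alone. Cyp2b10, the third member, was at -2.50 and missed the threshold (adjusted p = 0.064), while its other probe gave -4.01. Cyp2b10 was called when the zone 1 arrays were fitted alone, with no scaling, with quantile normalization and with the mean of its probes.

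The neighbouring Cyp2a genes were also higher in females. Cyp2a4, a testosterone hydroxylase, read 5.65, 5.89 and 5.70 in females and 1.23, 1.37 and 2.37 in males and differed by -4.09 ± 0.35 (17-fold, adjusted p = 7.75e-05). Cyp2a5, a coumarin hydroxylase, read 5.82, 6.41 and 6.53 and 1.50, 2.47 and 2.74 and differed by -4.01 ± 0.30 (16.2-fold, adjusted p = 1.92e-05). The male and female arrays stood apart for both. Of the 4 probes for these genes 3 list both copies, and the probe that lists Cyp2a5 alone differed by -3.30. A 30-base stretch of a probe named for Cyp2a4 and a probe named for Cyp2a5 is printed, with differing bases in capitals. These probes differ at 3 of the 38 bases on which they overlap. Their mm7 positions also overlap (chr7:23212199-23212258 and chr7:23212221-23212279), and the probe named for Cyp2a4 lists both copies. The differing bases therefore separate the probes and are not assigned to a gene copy.
Cyp2a4: aggacacTTCgtagacttgcagaggatatt
Cyp2a5: aggacacAGAgtagacttgcagaggatatt

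The Cyp2c cluster on chromosome 19 was the largest group of neighbours, and 6 of its members were called, all higher in females. Cyp2c39 read 5.72, 5.81 and 6.05 in females and 2.81, 3.20 and 2.95 in males and differed by -2.87 ± 0.18 (7.33-fold, adjusted p = 3.22e-06). Cyp2c54 differed by -3.00, Cyp2c37 by -2.79 and Cyp2c38 by -2.64, with no overlap of the sexes in any. The brighter Cyp2c29 and Cyp2c40 differed by -1.25 and -0.95. Cyp2c40, whose probe also lists Cyp2c67 and Cyp2c68, was not called when any 1 array was left out, and Cyp2c29 was not called without male replicate 1 or 3 or female replicate 2 or 3. On chromosome 19, 13 of 574 genes tested were called (2.26%).

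In all, 52 of 66 listed P450 genes of families 1 to 4 were tested. Of these, 10 were called higher in females and 2 higher in males, with a median of -0.10, close to the -0.07 of all genes. Those higher in males were Cyp4a12a and Cyp4v3, a fatty acid hydroxylase at 1.12 (adjusted p = 0.0206) that was not called when any 1 array was left out. Cyp3a44 and Cyp3a41a, known as female-biased P450s, differed by -1.16 (adjusted p = 0.102) and -0.84 (0.148). A dimmer Cyp3a44 probe gave -5.63, so the 2 probes of that gene disagree in size.

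Conjugating and other female-biased genes followed. Sult2a2, a hydroxysteroid sulfotransferase, read 1.25, 1.28 and 1.66 in females and -5.46, -4.72 and -6.10 in males, where no array was well above background. It was at least 60.6-fold higher in females (difference -6.83 ± 0.39, adjusted p = 1.81e-06). Sult3a1, an amine sulfotransferase, was at least 12.1-fold higher in females and not well above background in any male. Sult1d1 was 2.31-fold higher and was not called without male replicate 3 or female replicate 3. Of 26 sulfotransferases and glucuronosyltransferases tested out of 38 listed, 3 were called higher in females. The 2 called higher in males were Ugt2b1, a glucuronosyltransferase (2.8-fold), and Ugdh, which makes its sugar donor (2.21-fold). Neither was called without male replicate 1, 2 or 3 or female replicate 2 or 3.

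A1bg, a plasma glycoprotein, read 1.17, 0.79 and 0.85 in females and -6.54, -7.03 and -6.69 in males. It was at least 45-fold higher in females and not well above background in any male (-7.69, adjusted p = 1.58e-05). Hao2, a peroxisomal hydroxyacid oxidase, read 1.06, 2.09 and 1.91 and -6.28, -5.13 and -2.85, with male replicate 3 as the male array that measured it. It was at least 51.4-fold higher in females (adjusted p = 0.000753), with a difference of -5.68 without male replicate 1 and -7.39 without male replicate 3. The organic anion transporter family member Slc22a26, measured on 2 male arrays, was at least 33.5-fold higher in females. The membrane glycoprotein Prom2 and the aldo-keto reductase Akr1b7, each measured on 1 male array, were at least 16.8-fold and at least 5.43-fold higher. Akr1b7 was at 0.03 with normexp and lost its call without any 1 array except male replicate 2.

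Hamp2, a member of the hepcidin family of iron-regulating peptides, read 4.35, 5.79 and 6.60 in females and 2.29, 2.06 and 2.29 in males. The female arrays differed more among themselves than the male arrays, and all lay above them (-3.37 ± 0.50, 10.3-fold, adjusted p = 0.00653). Without female replicate 1 the difference was -3.98. It was the 1 called gene among 30 tested acute phase and iron genes. H19, an imprinted noncoding RNA of fetal liver, read 1.47, 2.28 and -0.50 in females and -3.33, -2.86 and -2.48 in males and was 15.7-fold higher in females. Its difference of -3.98 was -3.38 without female replicate 2 and -4.77 without female replicate 3.

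Of the 42 genes listed as known female-biased liver genes, 39 had a probe and 36 were tested. 16 were called higher in females and 1 higher in males, against 0.371% and 0.364% of all autosomal genes. Only 4 of the 36 differences were above 0, against 42.8% of those of all autosomal genes. The list was chosen with earlier results of these data known, so its counts are not independent of them. The median was -1.26, and the summed signal was 268 to 363 times the 75th percentile in males and 660 to 903 in females. The member called higher in males was Ttc39c (1.13, adjusted p = 0.0206), which was not called without any 1 array except female replicate 3.

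Single genes of steroid and fatty acid metabolism, Hsd3b5 and Cyp4a12a, gave the largest called differences in favour of males. Hsd3b5, a steroid reductase known from male liver, read 2.34, 2.19 and 2.31 in males and -2.13, -5.07 and -4.49 in females (chr3:98414360-98414419, mm7). Female replicate 1 was the female array that measured it, and all female arrays lay below all male arrays (6.18 ± 0.58, at least 58.2-fold, adjusted p = 0.000159). The difference was 7.06 without female replicate 1 and 5.59 without female replicate 2. Cyp4a12a, which hydroxylates arachidonic acid, read 5.09, 5.20 and 4.86 in males and -0.77, -1.40 and -0.71 in females on the printed probe. The arrays of each sex lay close together, with a difference of 6.01 ± 0.27 (64.3-fold, adjusted p = 2.29e-07), and its other probe gave 7.96.

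Cyp7b1, the oxysterol hydroxylase of the alternative bile acid pathway, read 5.40, 5.81 and 5.60 in males and 1.37, 0.77 and 1.29 in females (chr3:17798088-17798147, mm7). It was 22-fold higher in males (4.46 ± 0.22, adjusted p = 4.17e-07), with every male array far above every female array. Hsd3b5 and Cyp7b1 were the 2 called among 29 tested genes of steroid metabolism, whose median was 0.25. Elovl3, a fatty acid elongase, was at least 5.73-fold higher in males, measured on 1 female array. It was the 1 called gene among 33 of fatty acid and triglyceride synthesis.

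**Figure D2:**
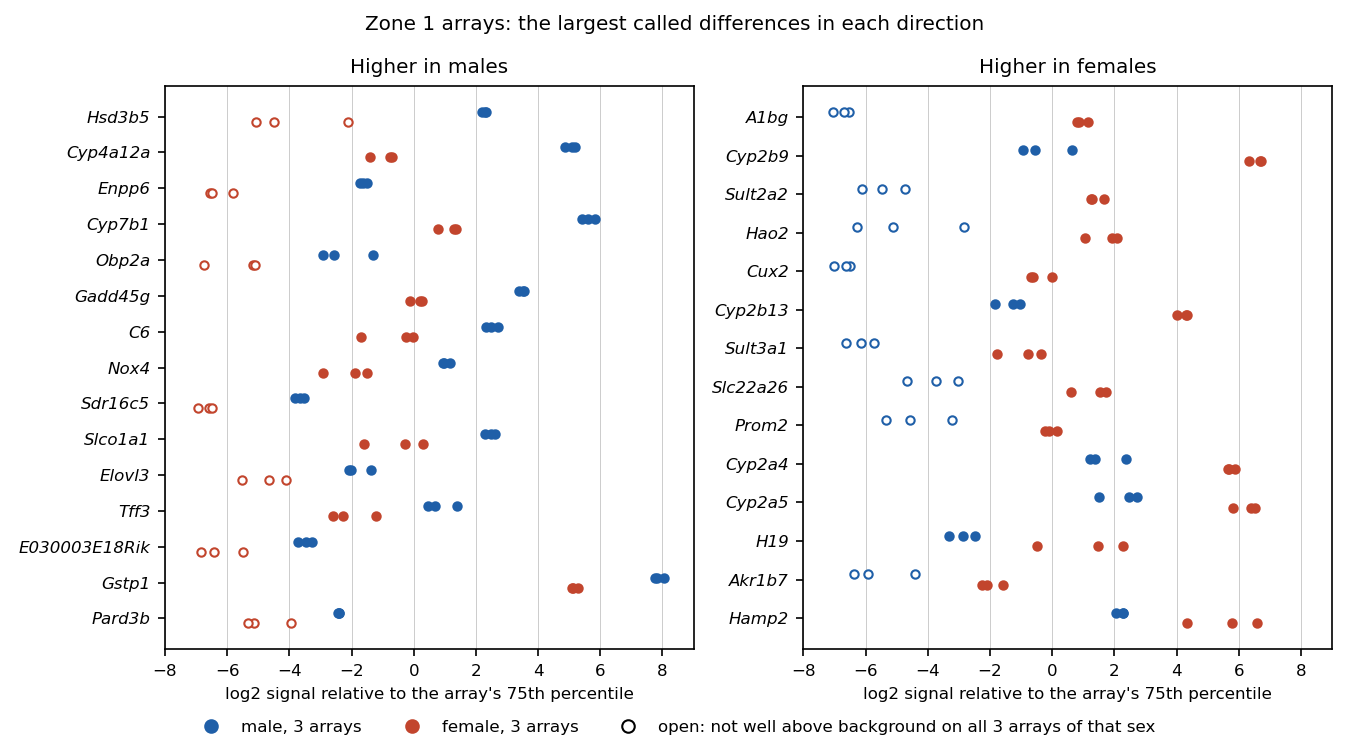
Level of the genes with the largest called differences, 15 higher in males and 14 of the 15 higher in females, on the 3 male (blue) and 3 female (red) zone 1 arrays, as log2 signal relative to the array's 75th percentile, 1 point per array. Open points mark a sex in which the gene was not well above background on all 3 arrays; no male and female points overlap for any gene shown, and the male and female means of A1bg lie 7.69 apart.

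Transporters and bile acid genes went both ways. Slco1a1, an uptake transporter of organic anions, read 2.61, 2.48 and 2.28 in males and 0.31, -1.61 and -0.28 in females, and was 7.91-fold higher in males (adjusted p = 0.00236). Its neighbour Slco1a4 went the other way, 2.63-fold higher in females (adjusted p = 0.0215), and lost its call without male replicate 1 or 2 or female replicate 2 or 3. Abcg2, an efflux pump, was 2.33-fold higher in males and was not called when any 1 array was left out. Of 33 tested genes of bile acid synthesis and transport, 3 were called higher in males and 1 higher in females.

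Other oxidising and detoxifying enzymes were mostly higher in males where called. Gstp1, the pi class glutathione transferase, read 7.76, 7.83 and 8.04 in males and 5.28, 5.09 and 5.13 in females and differed by 2.71 ± 0.20 (6.56-fold, adjusted p = 1.92e-05). Its arrays were tightly grouped by sex, its probe also lists Gstp2, and a probe that lists Gstp1 alone gave 2.85. Mgst1, a microsomal glutathione transferase, was 2.04-fold higher in males, and Gstt3, of the theta class, 4.57-fold higher in females. Mgst1 was not called without any 1 array except female replicate 1, nor Gstt3 without male replicate 1 or female replicate 2. These were the 3 called among 27 tested glutathione genes, whose median was 0.02.

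The aldehyde oxidases Aox3 and Aox1, neighbours on chromosome 1, were 4.8-fold and 4.36-fold higher in males (adjusted p = 0.000464 and 0.00352). Aox3 read 5.95, 5.97 and 5.97 in males, almost the same on each array, and 4.21, 3.56 and 3.31 in females. The carboxylesterase Ces1e was 2.1-fold higher in males and was not called when any 1 array was left out. Among 27 tested oxidation enzymes outside the P450s, Aox1, Aox3 and Ces1e were the 3 called higher in males, and the list median was 0.24.

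Secreted proteins of male liver were also called. Mup1, a major urinary protein that carries pheromones, read 10.45, 10.73 and 10.58 in males and 9.27, 7.96 and 8.86 in females (3.72-fold higher in males, adjusted p = 0.0107). Its probe lists Mup1, Mup2 and Mup5, and 2 further probes named for Mup1 gave 1.20 and 0.45. Mup4 was 2.78-fold higher in males, and Mup3 differed by 0.42 (adjusted p = 0.404), with 1.27 on its other, dimmer probe. Mup1 lost its call without male replicate 2 or 3, and Mup4 without any 1 array except female replicate 1. Of 22 listed Mup genes 4 were tested, with a median of 1.04. All 4 differences were above 0, against 42.8% of those of all autosomal genes.

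The complement protein C6 read 2.34, 2.49 and 2.71 in males and -0.02, -1.70 and -0.24 in females and was 8.97-fold higher in males (3.16 ± 0.37, adjusted p = 0.00102). C8a and C8b, which join it in the membrane attack complex, were 2.1-fold and 2.15-fold higher. C8a was not called when any 1 array was left out, and C8b lost its call without any 1 array except female replicate 3. No other gene of the 50 tested for complement, coagulation and serpins was called. Obp2a, an odorant-binding lipocalin, and Tff3, a trefoil peptide, were at least 4.44-fold and 7.37-fold higher in males, with no female array measuring Obp2a.

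Single genes of growth arrest, proliferation and oxidant production were also among those called. Gadd45g, a growth arrest gene, read 3.56, 3.40 and 3.50 in males and 0.19, 0.26 and -0.13 in females (3.38 ± 0.34, 10.4-fold, adjusted p = 0.000352). Myc read 2.19, 1.97 and 2.35 in males and 0.00, 0.39 and 0.08 in females, a difference of 2.01 ± 0.21 (4.04-fold), and its 3 probes gave 2.01 to 3.33. The sexes did not overlap for either gene. Myc was the 1 called among 17 tested immediate early and heat shock genes, whose median was 0.04. Nox4, an oxidase that makes hydrogen peroxide, was 8.73-fold higher in males, and its 2 probes gave 3.13 and 3.52. Birc5, an inhibitor of cell death expressed in dividing cells, read 4.25, 4.39 and 4.63 in females and 2.63, 2.00 and 2.60 in males (4.05-fold higher in females, adjusted p = 0.00199). Birc5 was the 1 called among 17 tested cell cycle genes, of which 14 differed below 0 with a median of -0.42. Among all autosomal genes 42.8% differed above 0. The summed cell cycle signal was 24.9 to 31.7 times the 75th percentile in males and 54.4 to 58.3 in females, with Birc5 in the sum. The median level of the 17 genes overlapped between the sexes, at -0.97 to -0.77 on the male and -0.81 to -0.36 on the female arrays.

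The remaining genes among the 15 largest on the male side were dim. Enpp6, a choline phosphodiesterase, was at least 6.95-fold higher in males (adjusted p = 0.00974), with no female array measuring it, and lost its call without male replicate 3 or female replicate 2. Sdr16c5, of the retinol dehydrogenase family, and the uncharacterised transcript E030003E18Rik were at least 1.69-fold and at least 1.93-fold higher, with no female array measuring them. Pard3b, a polarity protein, was at least 3.45-fold higher, measured on 1 female array. Pard3b lost its call without any 1 array except female replicate 1, and E030003E18Rik without any 1 except female replicate 2.

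Of the 40 genes listed as known male-biased liver genes, 35 had a probe and 31 were tested. 16 were called higher in males and none higher in females, against 0.364% and 0.371% of all autosomal genes. Above 0 were 29 of the 31 differences, against 42.8% of all autosomal genes. This list too was chosen with earlier results of these data known, so its counts are not independent of them. The median was 1.10. Beside those described above they included Keg1, of the glycine acyltransferase family, at 2.06 (adjusted p = 0.000774), Cspg5 at 2.06 (0.0105), the scavenger receptor Scara5 at 1.82 (0.0173) and the serpin pseudogene Serpina4-ps1 at 1.88 (0.0235). Cspg5 lost its call without male replicate 1, Scara5 without male replicate 2 or 3 or female replicate 1 or 2, and Serpina4-ps1 without any 1 array except female replicate 1.

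**Figure D3:**
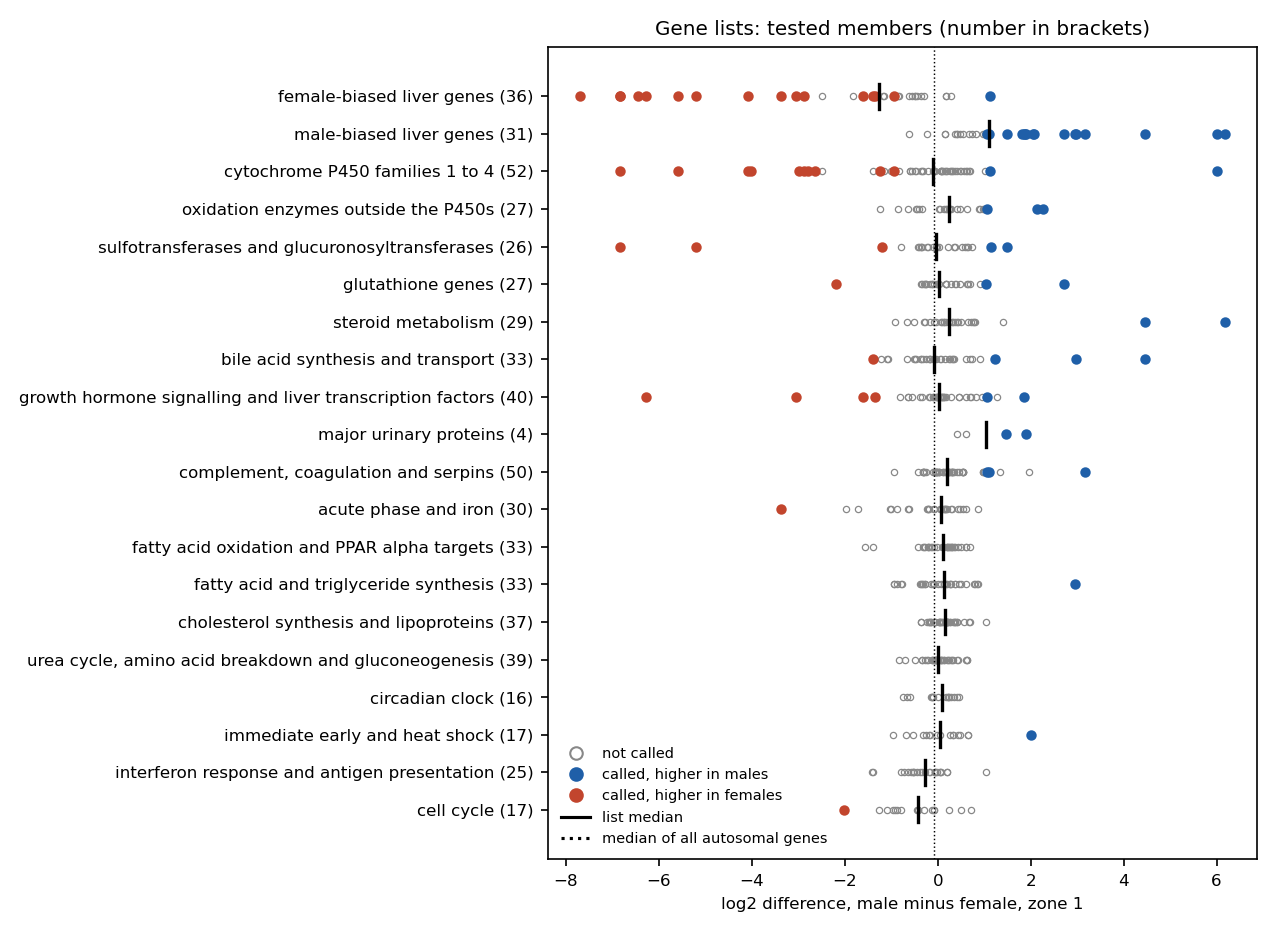
Differences between the sexes, as log2 male minus female, for the tested members of 20 gene lists (1 point per gene, without 1 gene that is not reported here, and the number tested in brackets); filled points were called. The list medians (bars) are -1.26 for known female-biased and 1.10 for known male-biased liver genes and 1.04 for the major urinary proteins, while those of the other lists lie between -0.42 and 0.25, around the -0.07 of all genes (dotted line).

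Core periportal metabolism gave no called gene between the sexes. None of 39 tested genes of the urea cycle, amino acid breakdown and gluconeogenesis was called, and their median was 0.01. By limma's adjusted p, none was called either among 33 genes of fatty acid oxidation (median 0.12) and 37 of cholesterol synthesis and lipoproteins (0.16). Nor was any called among 16 of the circadian clock (0.09) and 25 of the interferon response and antigen presentation (-0.28). A call was made in 0.735% of all genes, so that 0 called genes in lists of this size is near the background. Of the 32 lists, 9 kept the sign of their median in every alternative setting, among them both sex-biased lists, the Mup, cell cycle, interferon, macrophage and fibroblast lists; the other 23 medians changed sign in at least 1.

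The captured tissue carried the markers of its labelled zone in both sexes, and signal of other cells. The summed signal of 15 periportal hepatocyte markers was 939 to 1080 times the 75th percentile in males and 845 to 931 in females. It was 327 to 383 in zone 3 males and 344 to 374 in zone 3 females. None of the 15 was called between the sexes, and 7 differed above 0 and 8 below. Their median level overlapped, at 4.27 to 4.67 in males and 4.28 to 4.48 in females. Of 14 pericentral markers, the 11 tested summed to 24.7 to 43.7 in males and 36.9 to 59.2 in females, against 1273 to 1368 and 1280 to 1611 in zone 3, and Axin2, Lgr5 and Tbx3 were not well above background on all 3 arrays of either sex. Among the 11, Cyp2c37 and Lect2 (-1.92, adjusted p = 0.00132) were called higher in females, with a list median of -0.55 that became 0.13 with normexp. Glul, glutamine synthetase of the last pericentral cells, differed by 0.47, Oat by -0.70, Slc1a2 by -0.60, Cyp2e1 by -0.34 and Cyp1a2 by -0.55, and none was called. The part of pericentral tissue in the sex differences was not tested.

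Markers of macrophages and of fibroblasts and smooth muscle read higher on the female arrays, without a called gene. The 12 macrophage markers summed to 18.7 to 28.2 in males and 31.1 to 44.1 in females. Of the 11 autosomal ones 10 differed below 0, with a median of -0.56. Among all autosomal genes 42.8% differed above 0. Fibroblast and smooth muscle markers summed to 78.2 to 87.3 and 98.2 to 121, with 13 of 15 below 0 and a median of -0.55. For 16 lymphocyte and plasma cell markers the sums overlapped, at 13.8 to 18.3 and 17.0 to 29.9. Of the 15 autosomal ones 14 differed below 0, and their median of -0.56 became 0.17 with normexp. Bile duct markers overlapped between the sexes (32.5 to 39.4 and 35.9 to 49.9), as did the sums of 5 red cell markers (53.9 to 105 and 36.3 to 109). The median level of the 5 red cell markers was higher in males, at 2.91 to 3.54 against 0.58 to 1.26 in females. The 4 autosomal ones among them did not shift together. Of these, 2 differed above 0 and 2 below, by -0.75 to 0.47 with a median of 0.10. Of 8 neutrophil markers, 6 were not well above background. The part of these cells in the genes called higher in females was not tested.

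**Figure D4:**
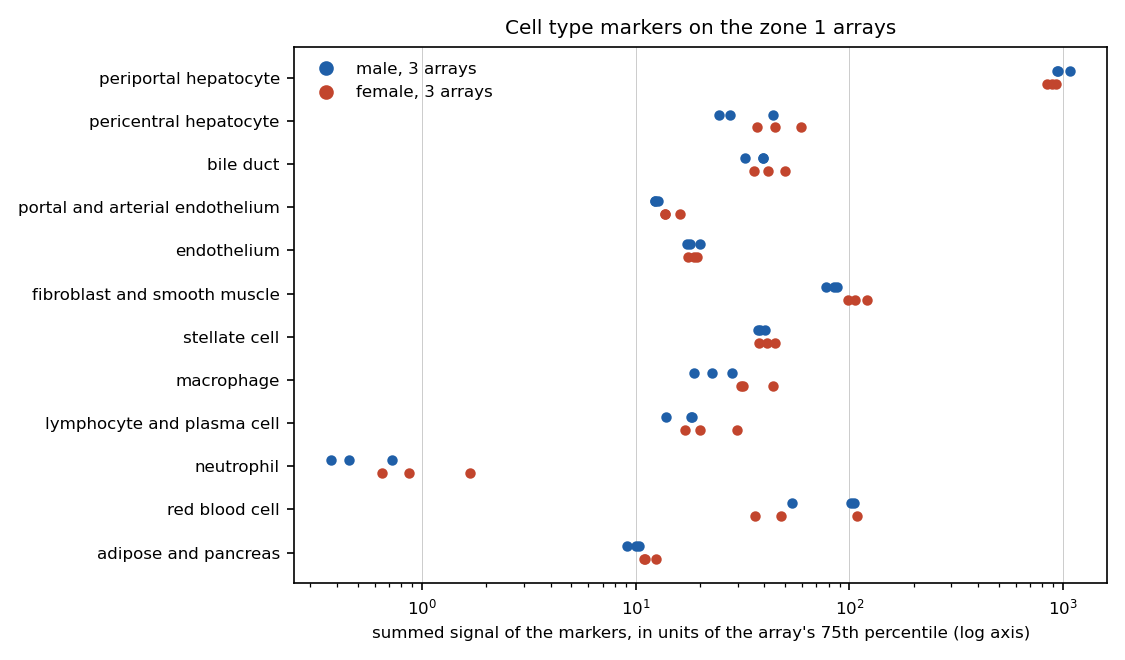
Summed signal of the markers of 12 cell types on the 3 male (blue) and 3 female (red) zone 1 arrays, in units of the array's 75th percentile on a log axis, 1 point per array. The sums of male and female arrays do not overlap for periportal hepatocytes (939 to 1080 in males, 845 to 931 in females), portal endothelium, fibroblasts, macrophages and adipose and pancreas, and they overlap for the other 7. The median level of the periportal markers overlaps between the sexes.

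Most sex differences around the portal tracts had the same sign around the central veins. No slide held both sexes of zone 3 either. Its 3 male arrays lay on the slide of male zone 1 replicate 1. Its female replicates 1 and 2 lay with male zone 1 replicates 2 and 3, and replicate 3 with the female zone 1 arrays. Slide and sex therefore cannot be told apart within zone 3, and the comparisons of the zones below carry this limit. Zone 3 had 144 called genes (0.937%), 71 higher in males (0.462%) and 73 higher in females (0.475%), of which 49 were also called in zone 1, all in the same direction. Of the 113 genes called in zone 1, 97 had the same sign in zone 3 against 62.0% of all autosomal genes, and 64 were not called there. Passing in 1 zone and not in the other does not show a difference between zones, which was tested as sex by zone: the zone 1 difference minus the zone 3 difference. It was called for 12 genes (0.0781%), 5 above 0 (0.0325%) and 7 below 0 (0.0455%), and 9 of them were among the 113.

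Cyp2a4, Cyp2a5, Cyp2c37 and Cyp2c39 differed more in zone 1 than in zone 3 by this test. Cyp2a5 differed by 0.17 in zone 3, at 6.83, 6.86 and 6.59 in males and 6.59, 6.60 and 6.58 in females, and its sex by zone value was -4.18 ± 0.42 (adjusted p = 0.00191). Male and female zone 3 arrays overlapped, and all 6 lay above every zone 1 array of either sex. For Cyp2a4 the zone 3 difference was -0.26 and the sex by zone value -3.83 ± 0.50 (adjusted p = 0.0119). Cyp2c39 (-0.21 in zone 3, sex by zone -2.67, adjusted p = 0.00184) and Cyp2c37 (0.13, -2.92, 0.0105) were also called. The other called Cyp2c genes were not called for sex by zone, with Cyp2c54 at -3.02 (adjusted p = 0.0694), Cyp2c38 at -2.49 (0.0895), Cyp2c29 at -1.48 (0.205) and Cyp2c40 at -0.77 (0.549).

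Cyp4a12a and Cyp7b1 also differed more in zone 1, in favour of males. Cyp4a12a read 5.56, 6.11 and 5.88 in zone 3 males and 4.18, 3.34 and 3.51 in zone 3 females, a difference of 2.17 against 6.01 in zone 1 (sex by zone 3.84 ± 0.38, adjusted p = 0.00191). Cyp7b1 differed by 1.75 in zone 3 and 4.46 in zone 1 (sex by zone 2.71 ± 0.31, adjusted p = 0.00475). Sdr16c5 was not well above background on any zone 3 array of either sex, where its difference was -0.21 (sex by zone 3.22). The lipid desaturase Fads3 and the glycosyltransferase B3galnt1 were called in zone 1 at 1.02 and -1.56 and stood at -0.95 and 1.00 in zone 3. Fads3 was not called in zone 1 when any 1 zone 1 array was left out, nor B3galnt1 without any 1 except male replicate 3.

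Kcnk1, Dct and Prom1 were called for sex by zone with the larger difference in zone 3, and none was called in zone 1. The potassium channel Kcnk1 differed by -1.41 in zone 1 and 4.90 in zone 3, where no female array measured it, and Dct, dopachrome tautomerase, by -1.42 and 4.63. Prom1, a marker of bile duct and progenitor cells, differed by -0.62 and -4.28, with no male zone 3 array measuring it. By contrast, Gadd45g (3.64), Myc (2.15), Bcl6 (2.27) and Prlr (-1.43) had zone 3 differences close to their zone 1 differences. Their sex by zone values lay between -0.41 and -0.14, and none was called. With slide as a fixed block, 3 genes were called for sex by zone, and with 1 zone 1 array left out 10 to 13.

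**Figure D5:**
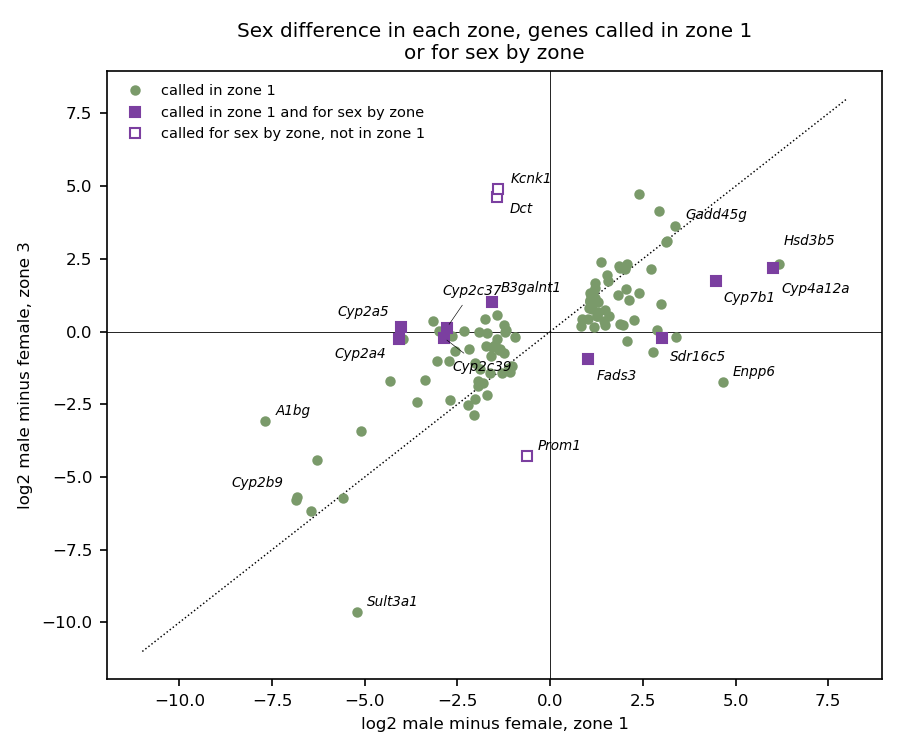
Sex difference in zone 1 (horizontal) and zone 3 (vertical), both as log2 male minus female, for the genes called in zone 1 (circles, without 1 gene that is not reported here) and those called for sex by zone (squares; open where not called in zone 1). On the dotted line the difference is equal in both zones; Cyp2a5 and Cyp2a4 lie near 0 in zone 3 with -4.01 and -4.09 in zone 1, and Kcnk1 and Dct lie at 4.90 and 4.63 in zone 3.

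Some called genes lay beside each other on the chromosomes. Of the 113, 26 had another called gene within 500 kilobases (mm7), which made 25 pairs, 22 of them in the same direction. The same count was not made for all genes tested, so these numbers have no background beside them. Same-direction groups were the Cyp2c genes, the Cyp2b and Cyp2a genes on chromosome 7, Mup1 with Mup4 and C8a with C8b on chromosome 4, Aox1 with Aox3, and the retinol dehydrogenase family members Rdh9 (-1.74) and Rdh16f2 (-1.81) on chromosome 10. Rdh9 lost its call in 4 of the 6 fits without 1 zone 1 array. The 3 pairs of opposite direction were Hsd3b5 with Hao2 on chromosome 3, Slco1a1 with Slco1a4 on chromosome 6, and Obp2a with Ptgds, a prostaglandin synthase at -2.72, on chromosome 2. Close copies can share signal through their probes, so pairs within the Cyp2a, Cyp2b, Cyp2c and Mup families are not independent measurements.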

How the data were processed

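Liver RNA was measured on 12 single-colour arrays, 3 per sex and zone, and the 6 zone 1 arrays were compared here. The authors deposited, per the file headers, spot intensity from Agilent Feature Extraction 9.5.3.1 (9.5 per the submitters' processing notes), already corrected for background and spatial trend within each array, with other kinds of values, namely flags for spots well above background, saturated or outliers. The series' deposited values equalled that processed intensity at all 45018 spots.

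Control spots (1639) and outlier spots were left out, spots of a probe were averaged, and log2 intensity minus the array's 75th percentile was taken. Probes well above background on all 3 arrays of a zone 1 group were kept, 26761 of them autosomal. Without a gene name, 6536 of the 41174 probes stayed out of the test. The brightest kept probe stood for each gene, which gave 16017 genes, 15368 of them autosomal out of 20248 on the array. Gene names came from RefSeq accessions or symbols in the files, and probe coordinates from the files (mm7).

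The 4 groups of all 12 arrays shared 1 limma fit of group means (limma 3.58.1 in R 4.3.3, files read with data.table (1.17.8) and jsonlite (2.0.0)), with degrees of freedom of 8 (residual) and 3.64 (prior). The procedure was tested on simulated data. P-values are two-sided, adjusted over the 16017 genes. Where a sex was not well above background on every array, the fold is a lower bound, taken against the dimmest spot that counted as well above background (9.23 to 14.8 intensity units) or the probe's own signal if higher. The number of arrays limits the precision.

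Genes are named by rule: the 15 largest called differences in each direction among genes whose sexes do not overlap, up to 4 called members per list and direction, members of the sex-biased and growth hormone lists, the 10 largest called for sex by zone, close copies and genes of the sex check. The rule's brightest members of lists with no called gene are not given singly. The pericentral markers and Cyp2c29, Cyp2c38, Cyp2c40, Cyp2c54, Lect2, Ptgds, Rdh9, Rdh16f2, Fads3, B3galnt1 and Dhx36 are named as members of a group or count that is described. 1 gene is not reported here, and counts and medians include it. The comparison and the gene lists were chosen with earlier results of these data known. Alternatives were another background correction, other scalings, filters, probe rules, slide and replicate blocks, and leaving out each array.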

Additional observations from a re-analysis of the deposited data

Results flagged for a closer look

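For 12 genes the difference between the sexes in zone 1 departed from that in zone 3 by limma's test of the difference itself, given as the zone 1 minus the zone 3 difference in log2 with its Benjamini-Hochberg adjusted p and 3 arrays per group. The difference lay further towards females in zone 1 than in zone 3 for Cyp2a5 (-4.18, adjusted p = 0.00191), Cyp2a4 (-3.83, 0.0119), Cyp2c37 (-2.92, 0.0105) and Cyp2c39 (-2.67, 0.00184). It lay further towards males in zone 1 for Cyp4a12a (3.84, 0.00191), Cyp7b1 (2.71, 0.00475) and Sdr16c5 (3.22, 0.00191). The sign differed between the zones for Kcnk1 (-6.31, 0.00184), Dct (-6.06, 0.00417), B3galnt1 (-2.56, 0.0346) and Fads3 (1.97, 0.0343). For Prom1 the female excess was larger in zone 3 (3.65, 0.0301). Some of these values rest on signal near background: no female zone 3 array measured Kcnk1, no male zone 3 array measured Prom1, and no female zone 1 array and no zone 3 array of either sex measured Sdr16c5.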

How the results depend on the processing

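The number of genes called between the sexes in zone 1 (113, 56 higher in males and 57 in females) fell to 40 (14 and 26) with normexp background correction and to 13 (3 and 10) with slide as a fixed block, and was 1134 (377 and 757) with slide as a random block on the zone 1 arrays, where the estimated correlation within a slide was -0.251. With no scaling the directions held 24 and 108 genes. Leaving out 1 zone 1 array gave 59 to 95 genes, 26 to 42 higher in males and 33 to 53 in females. The cause of these shifts was not tested. Normexp left the 5th percentile of signal at 266 and 140 on male replicates 1 and 2 and at 60.7 to 62.4 on the other zone 1 arrays, and 8 of the 113 genes changed sign with it.

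Replicate numbers did not pair the sexes, since deviations of same-numbered arrays correlated at -0.0322, -0.0314 and 0.0414. With the replicate number as a fixed replicate block, 86 genes were called, 37 higher in males and 49 in females, 79 of them among the 113. With replicate within sex as a random replicate block, 113 were called. The count was 93 to 145 with the other filters, scalings, probe rules and sources of values applied to genes, and 162 probes were called when every probe was tested. Sex by zone (12 genes) gave 7 with normexp, 22 with no scaling, 3 with slide as a fixed block and 8 to 17 otherwise.

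Some genes named here reversed direction. With normexp, Akr1b7 was at 0.032, Tox at 0.43, Avpr1a at 0.36, Igf1 at -0.29, Prom1 at 0.072, Slc1a2 at 0.69 and Oat at 0.12. With slide as a fixed block, Igf1 was at -0.18, Cish at -0.17, Dct at 0.84, Prom1 at 0.35 and Oat at 0.17. Igf1 was at -0.25 with no scaling and ranged from -0.014 (without male replicate 3) to 0.154 with 1 zone 1 array left out, Mup3 was at -0.044 with quantile normalization, and Car3 was at -0.84 with the mean of its probes. Of 82 called genes named in the text, 40 were called in each of the 6 fits without 1 zone 1 array, 29 in some of them and 13 in none. Signal over background limited 23 of the 113 genes, which gave only a lower bound of the fold.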

Other observations

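Some called genes outside the lists encode hormone, immune and nucleotide enzymes or receptors. They were chosen after their values were seen. Higher in females were Dio1, the deiodinase that activates thyroid hormone (difference -1.89, with levels of 1.76, 1.19 and 1.78 in females and -0.33, 0.04 and -0.66 in males), Nt5e, which makes adenosine (-2.57), the vasopressin receptor Avpr1a (at least 3.26-fold, on none of the male arrays), the cytokine receptor subunit Csf2rb2 (-1.70), the chemokine Ccl5 (-1.02) and the secreted protein Wfdc2 (-1.09). Rsl1, a zinc finger repressor of sex-dependent liver genes, read -1.41, -1.09 and -1.61 in females and -2.64, -2.35 and -2.65 in males (2.26-fold, adjusted p = 0.0173). The male and female arrays did not overlap for any of these genes. Dio1, Avpr1a, Csf2rb2 and Rsl1 each lost their call in 4 of the 6 fits without 1 zone 1 array, Nt5e in 2, Ccl5 in 5 and Wfdc2 in all 6, and Avpr1a was at 0.36 with normexp.

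Higher in males were the hepatocyte homeobox factor Hhex (difference 1.06, with levels of 3.40, 3.27 and 3.47 in males and 2.22, 2.51 and 2.23 in females), Aadat, which breaks down lysine and tryptophan products (1.10), the carboxylesterase Ces2b (1.54), Phlda1 (1.55) and Nat8f5 (at least 2.75-fold, on none of the female arrays). Car3, carbonic anhydrase of liver and muscle, was at 0.86 on its brightest probe, and its other probe had the opposite sign. The RNA helicase Dhx36 read 3.36, 3.71 and 3.45 in females and 0.82, 0.63 and 0.99 in males (6.47-fold higher in females, adjusted p = 0.000182), and its 2 probes also disagreed in sign. Hhex, Aadat, Phlda1 and Car3 lost their call without any 1 of the 6 arrays, Nat8f5 in 5 of the fits and Ces2b in 3, and Dhx36 kept it in all 6. Among the 113 called genes, 43 had several kept probes, and 7 of these had probes of opposite sign.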
